A study of Homo sapiens with 9 samples.

Results

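The enzymes that add and remove methyl and acetyl groups on histone lysines were measured before and after YM-155 in MDA-MB-231, a long-established human breast carcinoma cell line grown from a patient's pleural effusion. The genes were taken by symbol: KDM (lysine demethylases), KMT (lysine methyltransferases), HDAC (deacetylases), SIRT (sirtuins) and KAT (lysine acetyltransferases), each followed by its number and letter, with the Y-linked demethylase left out. The rule found 51 genes among the 22109 genes measured, namely 18 demethylases, 8 methyltransferases, 10 deacetylases, 7 sirtuins and 8 acetyltransferases. RefSeq holds 53 symbols of this form, and HDAC10 and KDM4F had no probe set of their own here. The rule reads only names, but this set of genes was picked with earlier results of these data known.

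YM-155, or sepantronium bromide, is a compound known for suppressing expression of BIRC5, the gene of survivin. RNA from 9 samples was measured on whole-transcript arrays in 3 groups of 3. The control cells had no treatment, with no time or vehicle given. The 8 h cells received YM-155 in steps that added up to 83 ng/ml and were collected while still attached and without visible death. The 20 h cells received 14.6 ng/ml, the dose the study had determined to kill 50% of cells (LC50). Dose and time therefore differ together between the treated groups and cannot be told apart, and the labels do not say whether the triplicates were separate cultures. The p-values then reflect the spread among these samples alone, which may be technical.

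Histone acetylation loosens chromatin and is laid down by acetyltransferases and removed by deacetylases, which are grouped into zinc-dependent classes and the NAD-dependent sirtuins. Lysine methylation can mark active or silent chromatin according to the residue, and it is written by SET-domain methyltransferases and erased by flavin-dependent demethylases of the KDM1 family or by JmjC-domain oxygenases, which need iron, oxygen and 2-oxoglutarate. Most of these enzymes act as subunits of large complexes that are brought to promoters and enhancers by transcription factors.

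Values are log2 levels on each array, and a level of one probe set was not set against that of another. Of the 51 genes, 46 were above the median level of all genes (3.89), and the 5 below it, KDM4D, KDM4E, KDM8, HDAC4 and SIRT4, passed no test. The 8 measured genes chosen as markers of this mesenchymal, basal-like line were all above that median. They were VIM, CD44, LAMB3, MSN, CAV1, AXL, EGFR and the keratin KRT18. Of 10 luminal markers 5 were above it and ESR1 (2.96) and PGR (2.01) were below, all 6 leukocyte markers were below it, and 1 of 3 endothelial markers was above it. Of the 13 markers of dividing cells, 4 were called lower at 8 h, 0 of them at least 2-fold, and 13 at 20 h, 12 of them at least 2-fold. Among all genes above the median level, 11.2% were called lower at 8 h and 31.1% at 20 h. Log2 of the summed linear level of the 13 markers was 12.15 to 12.33 in controls, 11.98 to 12.01 at 8 h and 10.23 to 10.34 at 20 h. Control replicate 3 stood apart: it differed from the mean of the other controls by at least 0.5 for KDM6B (1.28), KMT2D (0.64), KAT2A (0.57) and KMT2B (0.56), and the dividing-cell markers were lower on it by a median of 0.34.

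After 8 h, 15 of the 51 genes (29.4%) passed the test, 11 higher and 4 lower, against a background of 12.2% of all genes, 5.93% higher and 6.28% lower. A gene was called where limma's p-value, after Benjamini-Hochberg adjustment over the 22109 genes, was under 0.05. All 15 were among the 46 enzymes above the median level (32.6% of them), and the background at that level was 21.9% (10.7% higher and 11.2% lower). The median log2 change of the 51 genes was 0.02 against 0.00 for all genes. The 3 control and 3 treated arrays did not overlap for 20 of the 51 genes, against 27.4% of all genes. For overlap, here and in the later comparisons, the background among genes above the median level was not counted.

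After 20 h, 26 of the 51 genes (51%) passed, 15 higher and 11 lower, against 30.3% of all genes, 13.1% higher and 17.2% lower. Among genes above the median level the background was 51.1% (20% higher and 31.1% lower), and all 26 calls were among the 46 enzymes above it (56.5% of them), a share near this background. Repeated quantile normalization changed the split to 19 higher and 9 lower. The median log2 change was 0.09, against 0.03 for all genes. Arrays did not overlap for 34 of the 51 genes, against 40.6% of all genes whatever their level.

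The comparisons share their control arrays, so the values at 8 h and 20 h are given side by side below and not as a measure of agreement. Against control, 22 of the 51 genes passed at neither time, with log2 changes from -0.24 to 0.23 at 8 h and from -0.33 to 0.43 at 20 h. Changes of at least 2-fold were called for 3 genes at 8 h (KDM6B, KDM7A and KDM3A) and 5 at 20 h (KDM6B, KDM7A, SIRT1, KAT14 and HDAC1).

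**Figure D1:**
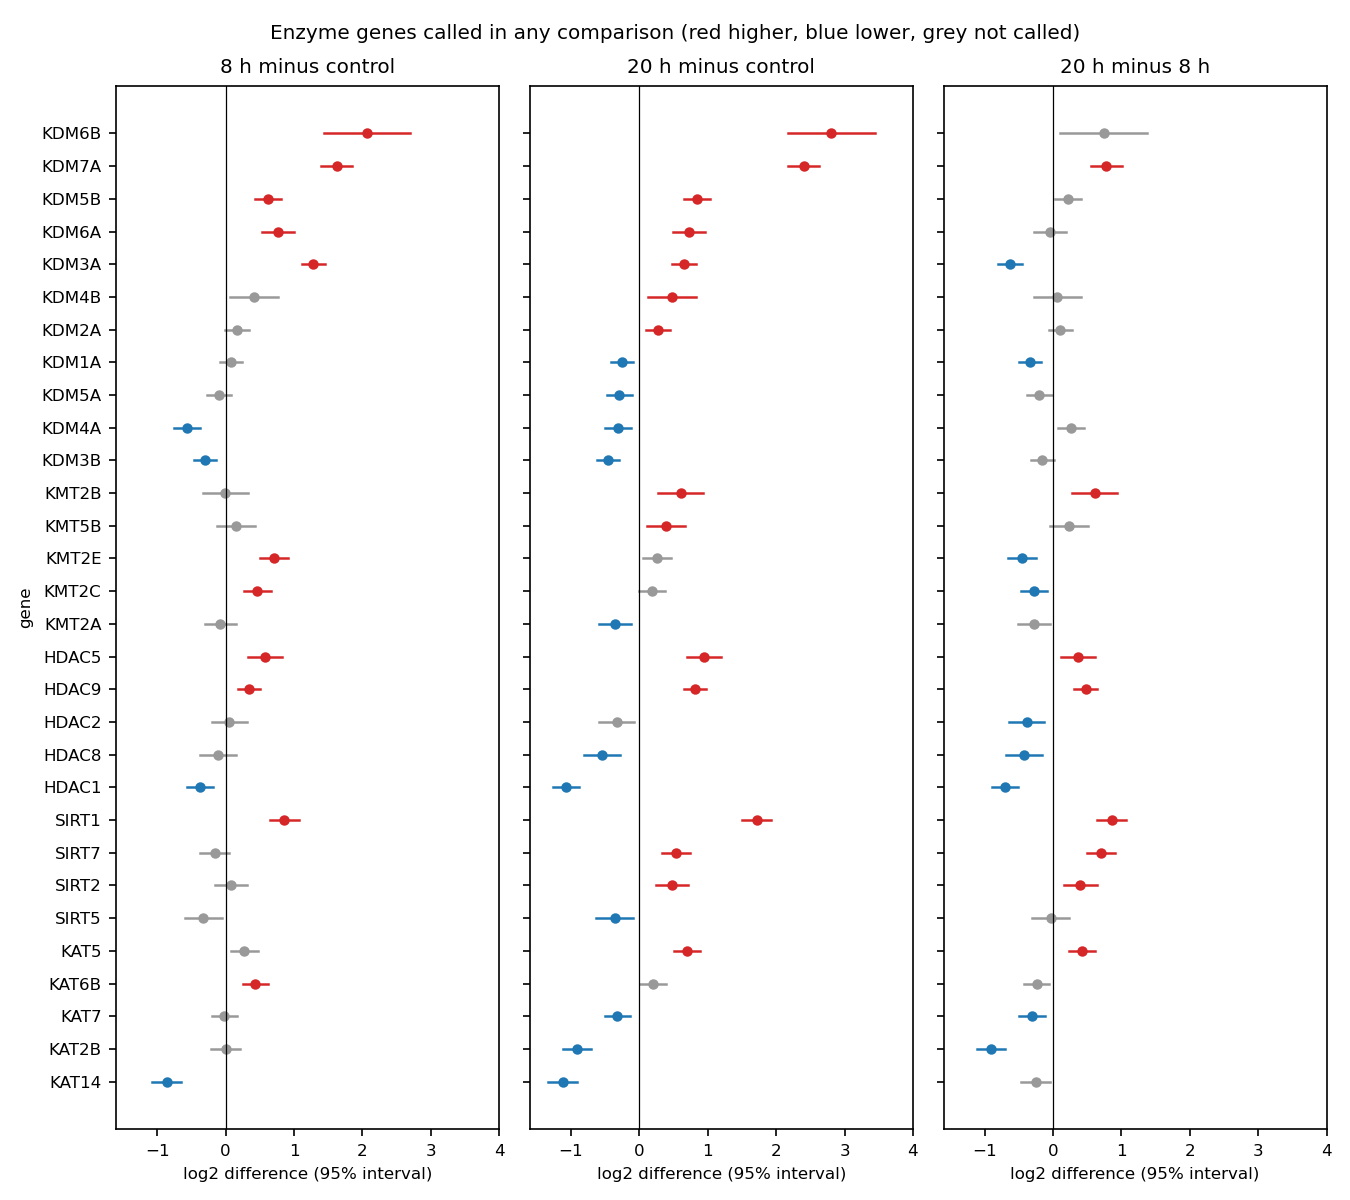
Log2 difference (x axis, point) with limma's 95% confidence interval (bar) for the 30 enzyme genes called in at least 1 comparison, in a panel each for 8 h minus control, 20 h minus control and 20 h minus 8 h; red is called higher, blue called lower and grey not called. KDM6B, KDM7A and SIRT1 lie farthest to the right at 20 h against control (2.81, 2.40 and 1.72), and KAT14 and HDAC1 farthest to the left (-1.12 and -1.08).

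The sequences upstream of the 4 genes with the largest increases are shown because these genes carry the largest changes of the list. Each is the 250 bases before the first start listed by RefSeq (GRCh38.p14), printed 5′ to 3′ on the gene's strand. KDM6B is at chr17:7833967-7834216 (plus), KDM7A at chr7:140176984-140177233 (minus), KDM3A at chr2:86441121-86441370 (plus) and SIRT1 at chr10:67884406-67884655 (plus). KDM6B and KDM3A have 2 starts each in RefSeq. Capitals mark the letters ACGTG on either strand, the core shared by hypoxia-response elements and by the E-box CACGTG, which reads the same on both strands.
KDM6B: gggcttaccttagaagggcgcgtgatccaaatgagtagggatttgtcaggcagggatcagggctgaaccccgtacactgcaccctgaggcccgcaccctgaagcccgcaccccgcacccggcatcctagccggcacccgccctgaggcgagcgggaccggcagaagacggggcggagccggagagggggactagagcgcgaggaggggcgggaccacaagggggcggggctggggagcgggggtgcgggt
KDM7A: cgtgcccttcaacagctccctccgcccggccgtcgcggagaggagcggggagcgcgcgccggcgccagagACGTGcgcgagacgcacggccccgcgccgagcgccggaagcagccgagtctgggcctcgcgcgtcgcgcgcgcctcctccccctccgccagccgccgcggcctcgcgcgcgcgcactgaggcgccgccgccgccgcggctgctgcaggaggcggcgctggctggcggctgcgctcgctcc
KDM3A: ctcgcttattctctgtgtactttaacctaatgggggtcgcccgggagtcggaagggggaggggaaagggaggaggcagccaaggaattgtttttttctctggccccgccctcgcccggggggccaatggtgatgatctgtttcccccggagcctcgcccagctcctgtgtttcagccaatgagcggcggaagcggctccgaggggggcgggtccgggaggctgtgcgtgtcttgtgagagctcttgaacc
SIRT1: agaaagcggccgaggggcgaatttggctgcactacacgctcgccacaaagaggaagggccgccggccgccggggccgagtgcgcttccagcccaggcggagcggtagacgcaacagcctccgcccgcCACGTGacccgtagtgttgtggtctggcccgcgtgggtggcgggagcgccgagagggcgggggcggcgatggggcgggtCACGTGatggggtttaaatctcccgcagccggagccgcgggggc
SIRT1 has CACGTG at 2 places, at bases 123 to 118 and 44 to 39 before the start, and KDM7A has ACGTG once, at bases 180 to 176. KDM6B and KDM3A have no ACGTG in these windows. An upstream sequence was available here for 46 of the 51 genes, and not for HDAC5, SIRT7, KAT6A, KAT8 and KDM4E. ACGTG was present in 12 of 46 (26.1%), against 18.7% of 27305 promoters of the same length. The E2F letters TTTCCCGC or TTTGGCGC were in 2 of 46 (KDM1B and SIRT6; 4.35%, against 1.96%), the cyclic AMP element TGACGTCA in 1 (SIRT4; 2.17%, against 1.77%) and the AP-1 letters TGACTCA or TGAGTCA in 2 (KDM4C and KDM6A; 4.35%, against 4.16%), both strands searched. A match is a description of these letters and not of a binding site.

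Among the demethylases 5 of 18 were higher and 2 lower at 8 h, and 7 were higher and 4 lower at 20 h. These were 38.9% and 61.1% of the class, against 12.2% and 30.3% of all genes. Among genes above the median level, where 15 of the 18 lie, 21.9% and 51.1% were called. The largest change belonged to KDM6B, a JmjC enzyme that removes the Polycomb methyl mark from histone H3 and is known as an inducible gene in macrophages. Its log2 levels were 5.31, 5.33 and 6.60 in the controls, 7.83, 7.83 and 7.78 at 8 h and 8.41, 8.52 and 8.74 at 20 h. All treated arrays were above all controls, all 20 h arrays were above all 8 h arrays, and control replicate 3 lay between the other controls and the 8 h arrays. KDM6B rose by 2.07 at 8 h (SE 0.29, 4.19-fold, limma adjusted p = 0.00125) and by 2.81 at 20 h (7.01-fold, adjusted p = 3.83e-05). The difference of 0.74 between 20 h and 8 h did not pass (adjusted p = 0.0934). Without control replicate 3 the changes were 2.50 and 3.24 (adjusted p = 7.34e-06 and 3.74e-07), and the difference of 0.74 passed (adjusted p = 0.000484).

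KDM7A is a JmjC enzyme with a PHD finger that erases repressive methyl marks. Its levels were 4.03, 4.37 and 4.31 in the controls, 5.82, 5.81 and 5.95 at 8 h and 6.69, 6.66 and 6.57 at 20 h. The 3 groups did not overlap and lay in the order control, 8 h, 20 h. KDM7A rose by 1.62 at 8 h (SE 0.10, 3.08-fold, limma adjusted p = 1.3e-05) and by 2.40 at 20 h (5.29-fold, adjusted p = 1.84e-07), and the 20 h level was above the 8 h level by 0.78 (adjusted p = 0.000411).

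KDM3A, which removes methyl groups typical of heterochromatin and is a textbook target of the hypoxia-inducible factor, had a different order. Its levels were 6.88, 6.85 and 6.80 in the controls, 8.04, 8.12 and 8.22 at 8 h and 7.50 on each of the 3 arrays at 20 h. The groups did not overlap, and the 8 h arrays were the highest. KDM3A rose 2.43-fold at 8 h (SE 0.08 on the log2 scale, limma adjusted p = 1e-05) and by 0.65 at 20 h (1.57-fold, adjusted p = 9.2e-05), and the 20 h level was below the 8 h level by a log2 difference of -0.63 (adjusted p = 0.000272). The deposited values of KDM3A were identical on the 20 h arrays, as were those of 204 genes in all in that group (0.923%), so they give no spread of their own. The paralogue KDM3B went the other way, at -0.30 at 8 h and -0.45 at 20 h (limma adjusted p = 0.0255 and 0.000862). The 8 h call of KDM3B ended without control replicate 2 or without any one of the 8 h replicates (adjusted p 0.0536 to 0.0952).

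**Figure D2:**
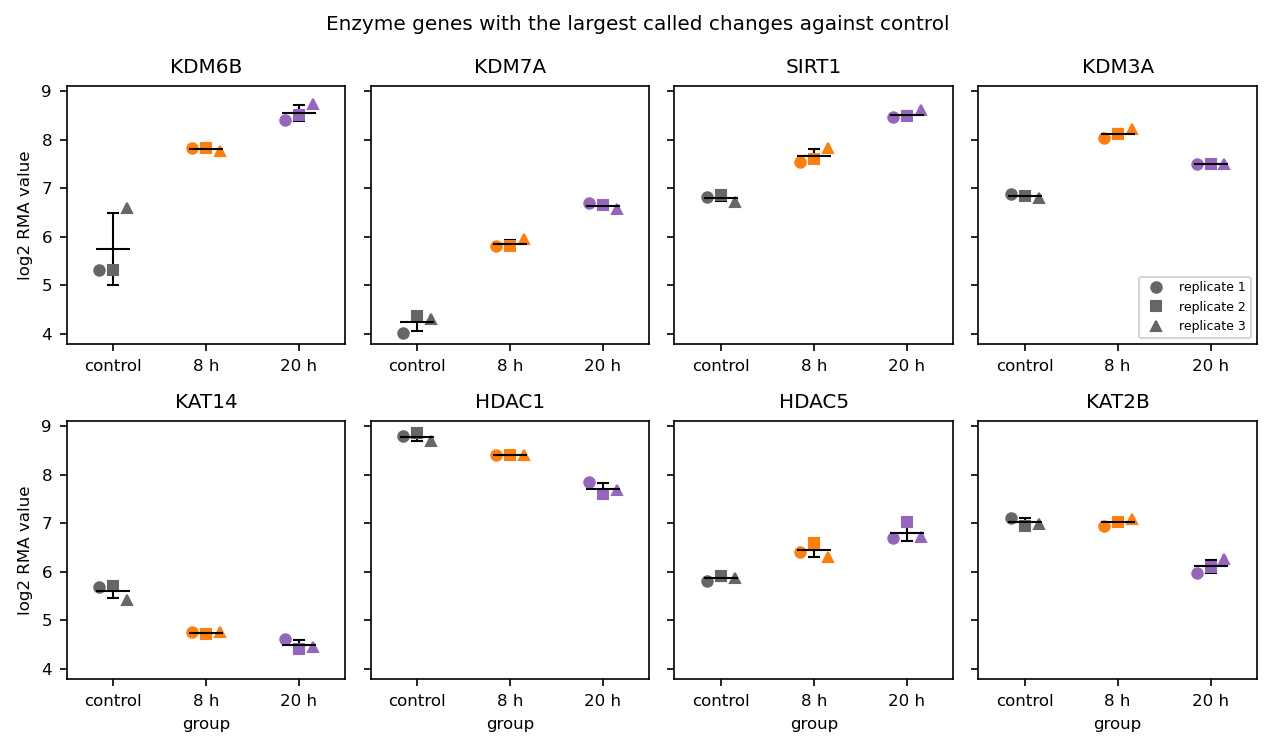
Log2 level (y axis) on each of the 9 arrays, by group (x axis), for the 8 genes with the largest called changes against control; each point is 1 array, its shape the replicate number, the long line the mean and the short bars 1 SD of 3 arrays. KDM6B, KDM7A, SIRT1 and HDAC5 lie in the order control, 8 h, 20 h, KDM3A is highest at 8 h, and KAT2B is lower at 20 h with its control and 8 h arrays overlapping.

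The remaining called demethylases changed by less than 2-fold. KDM6A, the X-linked relative of KDM6B, rose by 0.77 at 8 h and 0.73 at 20 h (limma adjusted p = 0.00126 and 0.000432). KDM5B, which removes the promoter mark of active genes, rose by 0.62 and 0.84 (adjusted p = 0.00129 and 3.93e-05). KDM4A fell at 8 h, with a change of -0.57 (adjusted p = 0.00195), and its change at 20 h was -0.31 (adjusted p = 0.0189). At 20 h alone KDM4B (0.48, adjusted p = 0.0396) and the CpG-binding KDM2A (0.28, adjusted p = 0.0197) were higher, and KDM5A (-0.29, adjusted p = 0.0184) and the flavin-dependent KDM1A (-0.26, adjusted p = 0.0203) were lower. Each of these 20 h calls, and that of KDM4A, ended when 1 array was left out. The arrays were control replicate 2 for KDM4A (limma adjusted p = 0.0584), control replicate 2 or 20 h replicate 3 for KDM5A (0.0591 to 0.072), control replicate 1, control replicate 2 or 20 h replicate 1 for KDM1A (0.0562 to 0.0693), and control replicate 1, control replicate 2 or 20 h replicate 2 for KDM2A (0.0528 to 0.0729). KDM4B lost its call without any one of control replicates 1 and 2, 8 h replicates 1 and 2 and 20 h replicates 1 and 3 (0.0503 to 0.145). Repeated quantile normalization also ended the 20 h calls of KDM4A (0.13) and KDM5A (0.197), and a fit of the 2 groups alone that of KDM4B (0.0625). KDM1B, KDM2B, KDM4C, KDM4D, KDM4E, KDM5C and KDM8 passed in no comparison.

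Of the 8 methyltransferases, 2 were higher at 8 h and 0 lower, and 2 were higher and 1 lower at 20 h. These were 25% and 37.5% of the class, against 12.2% and 30.3% of all genes. All 8 lie above the median level, where 21.9% and 51.1% of genes were called. The KMT2 family writes the methyl mark of active promoters and enhancers on histone H3. KMT2E, a family member without established methyltransferase activity, rose at 8 h by 0.71 (limma adjusted p = 0.000833) and stood at 0.26 at 20 h (adjusted p = 0.0529; it passed in 6 of 19 alternative settings, adjusted p 0.0227 to 0.0433), a difference of -0.45 (adjusted p = 0.00565). KMT2C, an enhancer-associated member, rose by 0.47 at 8 h (adjusted p = 0.00658) with 0.19 at 20 h (adjusted p = 0.141), a difference of -0.28 (adjusted p = 0.0445).

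KMT2B showed the opposite order, with 0.00 at 8 h and 0.60 at 20 h (limma adjusted p = 0.00933), a difference of 0.61 (adjusted p = 0.0132). Control replicate 3 was higher than the other controls for KMT2B by 0.56. KMT2A was lower at 20 h (-0.35, adjusted p = 0.0244) and KMT5B, which di- and trimethylates histone H4, was higher (0.39, adjusted p = 0.0359). The call of KMT2A ended without control replicate 3, 20 h replicate 1 or 20 h replicate 2 (limma adjusted p 0.0601 to 0.0787), and that of KMT5B without control replicate 3, where the change was 0.24, without 8 h replicate 1 or without any one of the 20 h replicates (0.052 to 0.0939). The difference of KMT2B between 20 h and 8 h ended without 8 h replicate 2 or 20 h replicate 3 (0.0517 and 0.0541). That of KMT2C ended without control replicate 1 or any one of the 6 treated arrays (0.0542 to 0.144) and after repeated quantile normalization (0.056). A fit of the 2 groups alone ended the 20 h calls of KMT2A (0.0572) and KMT5B (0.0671), and median centring that of KMT5B (0.0673). KMT2D, KMT5A and KMT5C passed in no comparison.

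Of the 10 zinc-dependent deacetylases, 2 were higher and 1 lower at 8 h, and 2 were higher and 2 lower at 20 h. These were 30% and 40% of the class, against 12.2% and 30.3% of all genes. Among genes above the median level, where 9 of the 10 lie, 21.9% and 51.1% were called. Of the 4 class I genes, nuclear enzymes that mostly work in corepressor complexes, 0 were higher and 2 lower at 20 h (HDAC1 and HDAC8), and of the 4 class IIa genes, which shuttle between nucleus and cytoplasm and bind MEF2 factors, 2 were higher and 0 lower (HDAC5 and HDAC9). The class I genes HDAC2 and HDAC3 (-0.33 and -0.07) and the class IIa genes HDAC4 and HDAC7 (0.10 and -0.14) did not pass at 20 h, and the classes were not tested against each other. Of all genes above the median level, 20% were called higher and 31.1% lower at 20 h. HDAC1, the catalytic subunit of Sin3, NuRD and CoREST complexes, had levels of 8.80, 8.86 and 8.70 in the controls, 8.41 on each of the 3 arrays at 8 h and 7.84, 7.60 and 7.68 at 20 h. The groups did not overlap, and the 20 h arrays were the lowest. HDAC1 fell at 20 h by 1.08 (SE 0.09, 2.11-fold lower, limma adjusted p = 7.65e-06), and its change at 8 h was -0.38 (adjusted p = 0.0167), with a difference of -0.70 (adjusted p = 0.000299). The 8 h call ended without control replicate 1, control replicate 2, 8 h replicate 1 or 8 h replicate 2 (adjusted p 0.054 to 0.0619). In RNA from whole cultures, a lower level per cell and fewer cells that express the gene cannot be told apart. The 13 dividing-cell markers fell in the same 20 h samples, with a median change of -1.59, and their part in the result was not tested.

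HDAC5 had levels of 5.80, 5.91 and 5.88 in the controls, 6.41, 6.60 and 6.31 at 8 h and 6.70, 7.02 and 6.71 at 20 h. The groups did not overlap, and the 20 h arrays were the highest. HDAC5 rose by 0.58 at 8 h (SE 0.11, limma adjusted p = 0.00724) and by 0.95 at 20 h (adjusted p = 9.53e-05), with a difference of 0.37 (adjusted p = 0.0367). HDAC9, the other class IIa gene called, rose by 0.34 and 0.82 (adjusted p = 0.0132 and 1.72e-05), with a difference of 0.48 (adjusted p = 0.00122). HDAC8 was lower at 20 h by a change of -0.54 (adjusted p = 0.00536) and differed from 8 h by -0.43 (adjusted p = 0.0249), and HDAC2, the close paralogue of HDAC1, differed between 20 h and 8 h by -0.39 (adjusted p = 0.0355), with -0.33 against control (adjusted p = 0.0525).

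Several of these differences between 20 h and 8 h depended on the processing. Repeated quantile normalization ended those of HDAC2 and HDAC8 (limma adjusted p = 0.109 and 0.0957), a fit of the 2 groups alone those of HDAC2 and HDAC5 (0.0679 and 0.0662), and median centring that of HDAC5 (0.05). That of HDAC5 also ended without control replicate 1, 8 h replicate 1, 8 h replicate 3 or 20 h replicate 2 (limma adjusted p 0.0502 to 0.13). That of HDAC8 also ended without 8 h replicate 1, 8 h replicate 3 or any one of the 20 h replicates (0.0561 to 0.0936). That of HDAC2 also ended without control replicate 1, 8 h replicates 1 or 3 or 20 h replicates 2 or 3 (0.0515 to 0.125). The deposited values of HDAC1, HDAC9 and KDM4E, the last below the median level of all genes, were identical on the 3 arrays of the 8 h group. In that group 362 genes (1.64%) had identical values. HDAC3, HDAC4, HDAC6, HDAC7 and HDAC11 passed in no comparison.

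**Figure D3:**
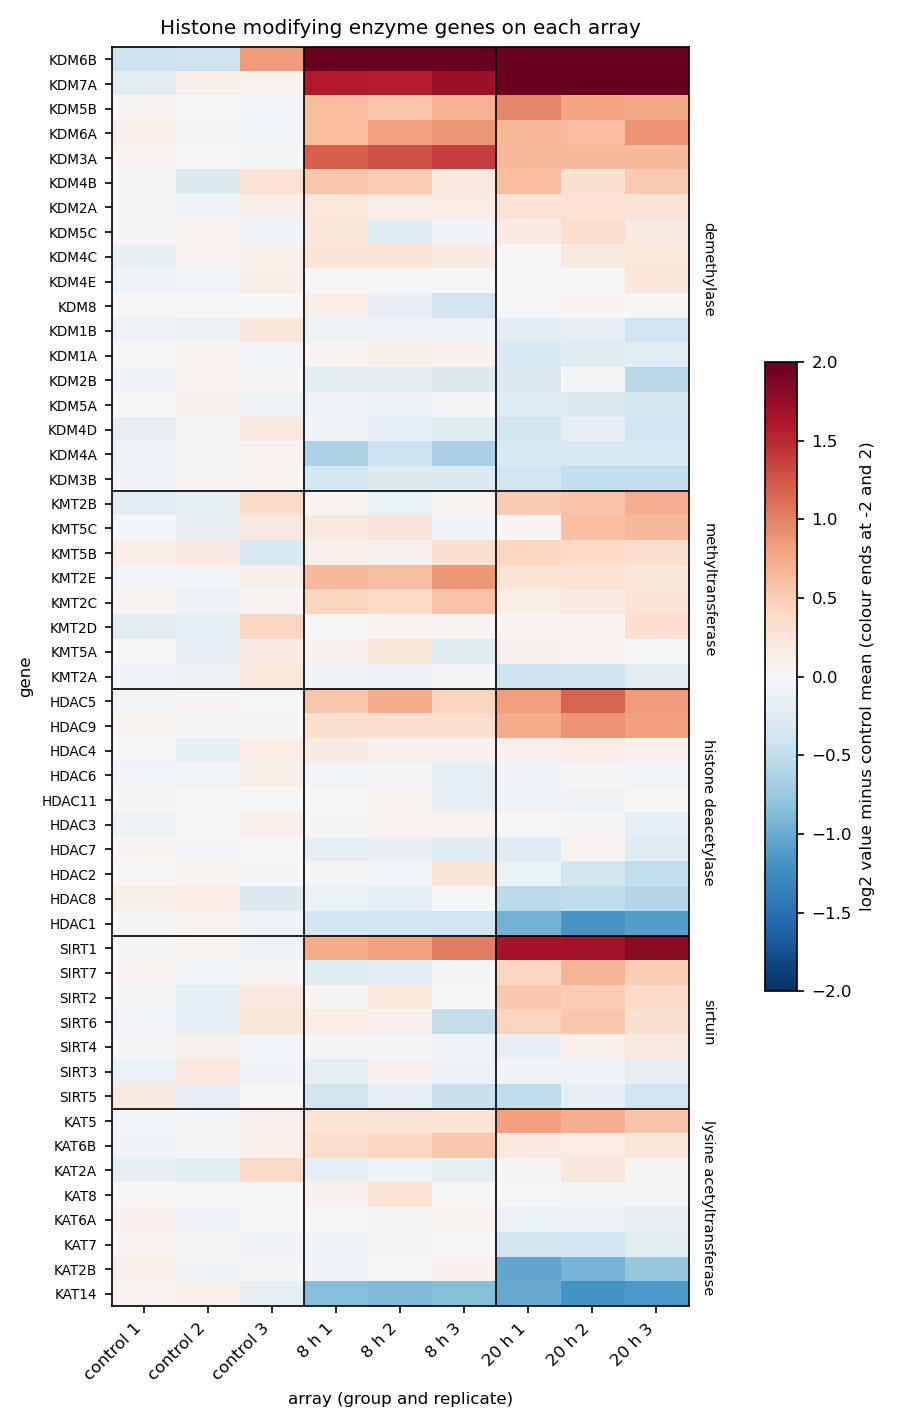
Level of each of the 51 genes (rows, grouped by enzyme class) on each of the 9 arrays (columns) as the log2 difference from that gene's control mean, red above it and blue below; the colour scale ends at 2 in either direction, which KDM6B and KDM7A pass. Strong red is seen for KDM6B, KDM7A and SIRT1 at 20 h and for KDM3A at 8 h, and the strongest blue for KAT14, HDAC1 and KAT2B at 20 h, and control replicate 3 is red for KDM6B (1.28 above the other controls).

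Of the 7 sirtuins, 1 was higher and 0 lower at 8 h, and 3 were higher and 1 lower at 20 h. These were 14.3% and 57.1% of the class, against 12.2% and 30.3% of all genes. Among genes above the median level, where 6 of the 7 lie, 21.9% and 51.1% were called. SIRT1 is the nuclear NAD-dependent deacetylase of histones, p53 and other transcription factors. Its levels were 6.83, 6.87 and 6.73 in the controls, 7.55, 7.62 and 7.84 at 8 h and 8.47, 8.48 and 8.62 at 20 h. The groups did not overlap and lay in the order control, 8 h, 20 h. SIRT1 rose by 0.86 at 8 h (SE 0.10, limma adjusted p = 0.000347) and by 1.72 at 20 h (3.29-fold, adjusted p = 7.89e-07), and the 20 h level was above the 8 h level by 0.86 (adjusted p = 0.000169).

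SIRT7, a nucleolar sirtuin, had a change of -0.16 at 8 h that did not pass and was higher at 20 h by 0.54 (limma adjusted p = 0.00128), a difference of 0.70 (adjusted p = 0.000496). SIRT2, mainly cytoplasmic, was higher at 20 h by 0.48 (adjusted p = 0.00577), with a difference from 8 h of 0.40 (adjusted p = 0.0209). SIRT6, which acts on chromatin at telomeres, had 0.43 at 20 h and did not pass (adjusted p = 0.081). Among the mitochondrial sirtuins SIRT3 and SIRT4 passed in no comparison, and SIRT5 was lower at 20 h (-0.36, adjusted p = 0.0468). SIRT5 was the 1 called gene whose arrays overlapped between groups, and its call ended without any one of control replicates 1 and 3, 8 h replicates 1 and 3 and 20 h replicates 1 and 3 (limma adjusted p 0.0536 to 0.162), in a fit of the 2 groups alone (0.0745), with array weights (0.0555) and with a trended robust variance (0.059). The SIRT2 difference ended without 8 h replicate 1, 8 h replicate 3, 20 h replicate 1 or 20 h replicate 2 (0.0617 to 0.0769).

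Of the 8 acetyltransferases, 1 was higher and 1 lower at 8 h, and 1 was higher and 3 lower at 20 h. These were 25% and 50% of the class, against 12.2% and 30.3% of all genes. All 8 lie above the median level, where 21.9% and 51.1% of genes were called, near the shares of the class. KAT14, a subunit of the ATAC complex, had levels of 5.68, 5.71 and 5.43 in the controls, 4.76, 4.72 and 4.76 at 8 h and 4.61, 4.41 and 4.46 at 20 h. All treated arrays were below all controls, and the 20 h arrays lay below the 8 h arrays. KAT14 fell by 0.86 at 8 h (SE 0.10, limma adjusted p = 0.000347) and by 1.12 at 20 h (2.17-fold lower, adjusted p = 1.25e-05), and the difference of -0.25 between the treated groups did not pass (adjusted p = 0.0863).

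KAT2B, an acetyltransferase that alternates with KAT2A in the SAGA and ATAC complexes, passed against control at 20 h and not at 8 h. Its levels were 7.11, 6.95 and 6.99 in the controls, 6.94, 7.02 and 7.10 at 8 h and 5.98, 6.09 and 6.25 at 20 h. The control and 8 h arrays overlapped and the 20 h arrays were below all of them. The change at 8 h was 0.00 (95% interval -0.21 to 0.21, limma adjusted p = 0.999), KAT2B fell by 0.91 at 20 h (SE 0.09, 1.87-fold lower, adjusted p = 4.11e-05), and the difference of -0.91 passed (adjusted p = 0.000105).

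KAT5, the catalytic subunit of the NuA4 complex, rose at 20 h by 0.70 (limma adjusted p = 0.000139) and had 0.28 at 8 h (adjusted p = 0.0662), a difference of 0.42 (adjusted p = 0.00577). KAT6B, a MYST-family enzyme that acetylates histone H3, rose at 8 h by 0.44 (adjusted p = 0.0078). KAT7, the enzyme linked to replication origins, was lower at 20 h by a change of -0.32 (adjusted p = 0.0121) and differed from 8 h by -0.31 (adjusted p = 0.0222). Repeated quantile normalization ended both KAT7 calls (adjusted p = 0.0963 and 0.176), and the difference from 8 h also ended without 8 h replicate 2, 8 h replicate 3, 20 h replicate 1 or 20 h replicate 2 (0.0639 to 0.0765). KAT2A, KAT6A and KAT8 passed in no comparison.

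Tested directly, 17 of the 51 genes (33.3%) differed between 20 h and 8 h, 8 higher and 9 lower at 20 h, against a background of 22.6% of all genes, 8.95% higher and 13.6% lower, and of 38.2% among genes above the median level, 13.4% higher and 24.8% lower. The 17 were 37.0% of the 46 enzymes above that level, near its background. Repeated quantile normalization gave 11 higher and 5 lower. The median difference was -0.01, against 0.02 for all genes. Arrays did not overlap for 32 of the 51 genes, against 38.3% of all genes whatever their level. The differences ran from -0.91 for KAT2B to 0.86 for SIRT1. By class, 1 of 18 demethylases was higher and 2 lower at 20 h than at 8 h, 1 of 8 methyltransferases higher and 2 lower, 2 of 10 deacetylases higher and 3 lower, 3 of 7 sirtuins higher and 0 lower, and 1 of 8 acetyltransferases higher and 2 lower. KDM1A was among those lower at 20 h (-0.33, limma adjusted p = 0.00742).

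The partners of these enzymes were counted from lists of their complexes and relatives. Most of them lie above the median level, where 21.9% of genes were called at 8 h and 51.1% at 20 h, and each list's share is given for reading against these values. The 24 genes listed as histone methyltransferases without a KMT symbol were taken by name, and the activity of each on histones was not checked. Of these 24, 1 was higher and 6 lower at 8 h (29.2% called), led by SMYD4 (-0.61) and EHMT2 (-0.56), a euchromatic methyltransferase. At 20 h 5 were higher and 16 lower, with a median of -0.49 (87.5% called). NSD2 and SUV39H2, the latter a heterochromatin enzyme, led these at -1.26 and -1.14 (limma adjusted p = 9.35e-07 and 4.76e-05). SMYD4 and EHMT2 were lower at 20 h as well (-1.13 and -0.41, limma adjusted p = 7.21e-05 and 0.00955). Of 9 genes of the Polycomb complex PRC2 and its partners, 1 was higher and 0 lower at 8 h and 3 were higher and 5 lower at 20 h (11.1% and 88.9% called). JARID2, which recruits PRC2, rose by 1.12 and 1.35 (adjusted p = 4.03e-05 and 1.76e-06), and the core subunit SUZ12 was at -1.08 at 20 h (adjusted p = 3.17e-05). The dividing-cell markers fell in these same 20 h samples, 13 of 13, and their part in these falls was not tested. Of 9 arginine methyltransferases, 0 were higher and 2 lower at 8 h and 1 was higher and 5 lower at 20 h (22.2% and 66.7% called). PRMT6 fell at both times (-0.94 and -0.99), and PRMT9 (-0.70 and -1.49) lost its 8 h call without control replicates 1 or 2 or 8 h replicates 1 or 2 (adjusted p 0.0616 to 0.0723).

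Of 15 COMPASS subunits, partners of the KMT2 enzymes, 1 was higher and 3 lower at 8 h and 1 was higher and 4 lower at 20 h (26.7% and 33.3% called, the latter below the background). HCFC2 fell at both times (-0.59 and -1.50) and the core subunit ASH2L was at -1.06 at 20 h (limma adjusted p = 6.7e-06). PAGR1 was at -0.71 at 8 h (adjusted p = 0.0354), a call that ended without any one of 8 of the 9 arrays, the exception being 8 h replicate 2 (0.051 to 0.103). Of 11 JmjC proteins without a KDM symbol, 2 were higher and 1 lower at 8 h and 2 were higher and 3 lower at 20 h (27.3% and 45.5% called). JMJD6, a JmjC hydroxylase, rose by 0.78 and 0.91 and JMJD1C by 0.69 and 0.55, called at both times. TYW5, a tRNA hydroxylase, was at -0.74 at 20 h.

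Of 36 subunits of deacetylase corepressor complexes, 6 were higher and 3 lower at 8 h and 10 were higher and 9 lower at 20 h (25% and 52.8% called, near the background at both times). RCOR1, the CoREST scaffold, and MIER1 rose at 8 h (0.75 and 0.68), and RCOR1 was also higher at 20 h (0.45, limma adjusted p = 0.0177). ING1, a Sin3 subunit that reads methylated H3, rose at 20 h (1.42, limma adjusted p = 1.32e-06), and the histone chaperone RBBP7 was at -1.04 (adjusted p = 0.000197). Of 13 kinases and MEF2 factors that act with class IIa deacetylases, 4 were higher and 1 lower at 8 h and 3 were higher and 3 lower at 20 h (38.5% and 46.2% called). The salt-inducible kinase SIK1, which phosphorylates class IIa deacetylases, rose by 2.76 at 8 h and 3.06 at 20 h (adjusted p = 6.85e-06 and 3.67e-07), and MEF2D rose by 0.98 and 1.08 (adjusted p = 0.000308 and 3.13e-05).

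Of 38 subunits of KAT complexes, 5 were higher and 4 lower at 8 h and 11 were higher and 12 lower at 20 h (23.7% and 60.5% called, the former near the background). EPC1, a NuA4 scaffold, rose by 1.01 at 8 h (limma adjusted p = 0.000145) and JADE2, a partner of KAT7, was at -0.89 (adjusted p = 0.000127). YEATS4, an acetyl-lysine reader of NuA4, and TADA2A, the adaptor of ATAC, were at -1.79 and -1.49 at 20 h. Of 11 acetyltransferases without a KAT symbol, 2 were higher and 0 lower at 8 h and 4 were higher and 4 lower at 20 h (18.2% and 72.7% called). HAT1, which acetylates new histone H4, was at -0.96 at 20 h (adjusted p = 7.6e-05) and NAA60 at 0.82 (adjusted p = 0.000688). CREBBP (0.63, adjusted p = 0.014) and TAF1 (0.37, adjusted p = 0.0344) were higher at 8 h. CREBBP was also higher at 20 h (0.58, limma adjusted p = 0.00818). Control replicate 3 stood apart for partner genes too. It differed from the mean of the other controls by 0.56 for CREBBP, 0.51 for NAA60, -0.56 for PRMT9 and -0.50 for RBBP7. TAF1 lay below the median level of all genes, with a mean of 2.82 over the arrays. The 8 h call of CREBBP ended without control replicate 1 or 2 (0.0529 to 0.0557) and that of TAF1 without control replicates 1 or 3, 8 h replicates 1 or 2 or 20 h replicate 1 (0.0517 to 0.122).

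Of 15 genes of NAD synthesis and use, which supply and compete for the cosubstrate of the sirtuins, 2 were higher and 3 lower at 8 h and 1 was higher and 4 lower at 20 h (33.3% and 33.3% called, the latter below the background, with 10 of the 15 genes above the median level). PARP1, a main consumer of NAD, was at -0.73 at 8 h and -1.33 at 20 h (limma adjusted p = 0.00184 and 9e-06), and PARP2 was at -1.48 at 20 h (adjusted p = 3.22e-07). NAMPT, the rate-limiting enzyme of NAD salvage, rose by 0.70 at 8 h (adjusted p = 0.00949). The median log2 changes of the partner lists ran from -0.15 to 0.18 at 8 h, against 0.00 for all genes, and from -0.49 to 0.19 at 20 h, against 0.03.

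**Figure D4:**
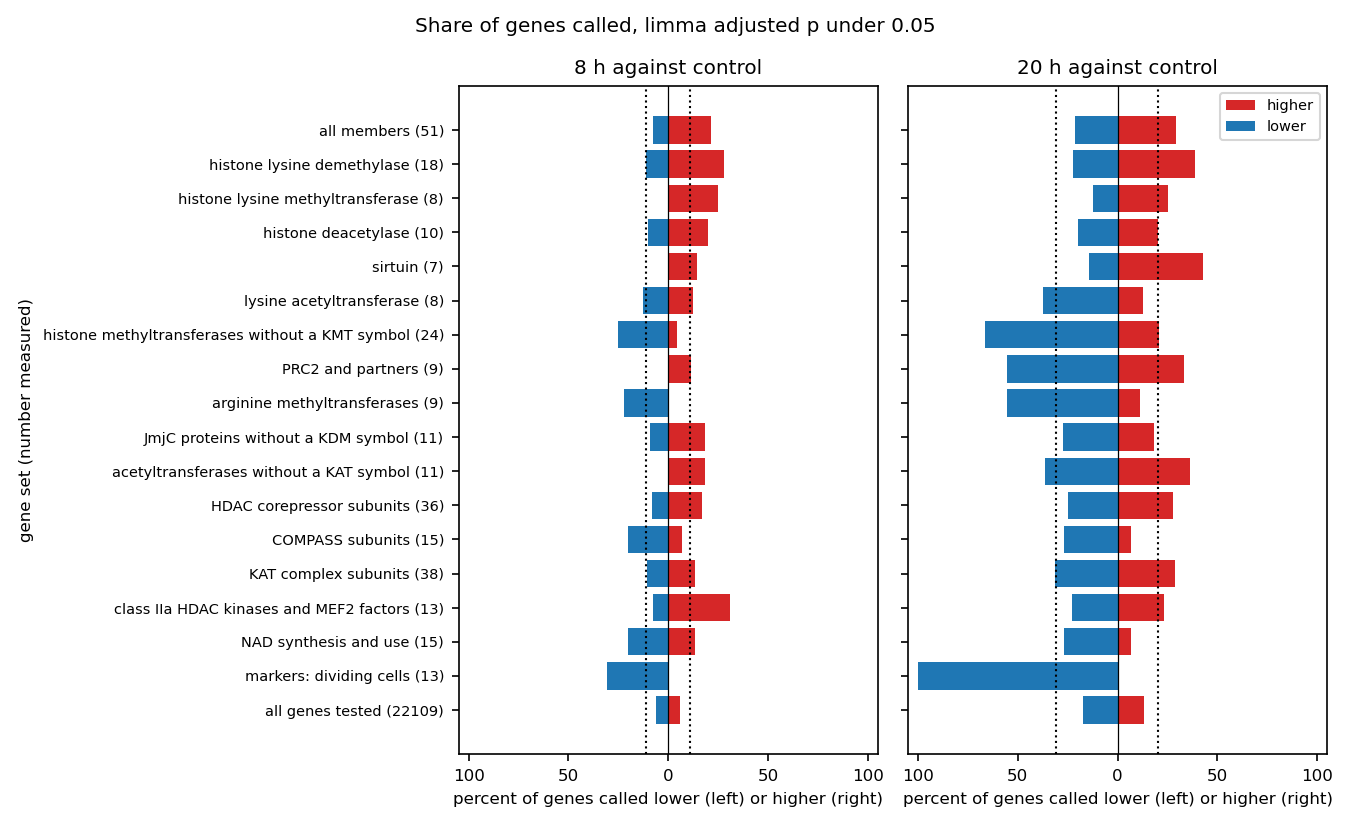
Percent of genes called lower (blue, left) or higher (red, right) by limma against control at 8 h and at 20 h, for the 51 enzymes (all members), their classes, the partner lists, the dividing-cell markers and all genes, with the number measured in brackets; dotted lines give the percent called among genes above the median level. At 20 h the enzymes had 15 higher and 11 lower, the methyltransferases without a KMT symbol 5 and 16, and the dividing-cell markers 0 and 13.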

How the data were processed

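Total RNA from 9 samples was measured on Affymetrix whole-transcript arrays. Per the submitters' processing notes, the authors made the deposited log2 values with RMA in Affymetrix Expression Console, with versions not given in the sources used here. Of 53617 probe sets, those with 1 gene symbol in the platform annotation were used (23558), the brightest per gene by its mean over all arrays, and symbols were updated through gene identifiers, giving 22109 genes. Each of the 51 enzymes had 1 probe set. RMA scales all arrays to one distribution, so a shift of all genes together would not be seen. There are no read counts behind array values, so precision is limited by the number of arrays.

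A model of the 3 group means over the 9 arrays was fitted with limma 3.58.1 under R 4.3.3 (lmFit, then eBayes; two-sided), with 6 residual and 4.01 prior degrees of freedom, adjusted over all genes. With 3 arrays on each side, the smallest exact permutation p is 0.1, so that test called nothing. On simulated data with changes in 200 of 22109 genes, the fit recovered 99% of log2 changes of 1 at 8 h and 100% at 20 h. It recovered 47% and 38% of changes of 0.5. The data had 2698 calls at 8 h and 6704 at 20 h, and the adjustment is stricter where fewer genes change. The simulated shares therefore do not give the recovery in these data. Every enzyme called is named, with values on each array for the 8 with the largest called changes against control. Up to 2 genes are named per partner list and comparison with control. A partner gene named at 1 time can also have been called at the other. The genes and lists were chosen with earlier results of these data known. Promoter letters came from RefSeq, first start per gene.

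Alternatives were genes above the median level only, means over probe sets, all probe sets, a trended robust variance, repeated quantile normalization, median centring, array weights, 2-group fits, a replicate block and leaving out each array. An average of 8 h replicates 1 and 2 was added after seeing the data, because these were the closest pair.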

Additional observations from a re-analysis of the deposited data

Results flagged for a closer look

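For 17 of the 51 enzymes the 20 h and 8 h effects differed by a direct test (limma adjusted p under 0.05), and dose and time both differ between these groups. They were 33.3% of the enzymes, against 22.6% of all genes. Of the 46 enzymes above the median level 37.0% were called, near the 38.2% of all genes at that level. The calls of 7 of the 17 (KMT2B, KMT2C, HDAC2, HDAC5, HDAC8, SIRT2 and KAT7) were lost in at least 1 alternative setting. The log2 difference of 20 h minus 8 h was 0.86 for SIRT1, 0.78 for KDM7A, 0.70 for SIRT7, 0.61 for KMT2B, 0.48 for HDAC9, 0.42 for KAT5, 0.40 for SIRT2 and 0.37 for HDAC5. It was -0.91 for KAT2B, -0.70 for HDAC1, -0.63 for KDM3A, -0.45 for KMT2E, -0.43 for HDAC8, -0.39 for HDAC2, -0.33 for KDM1A, -0.31 for KAT7 and -0.28 for KMT2C.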

How the results depend on the processing

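Of 58 calls of these enzymes over the 3 comparisons, 40 held in each of the 19 alternative settings in which they could be computed, 18 were lost in at least 1 and 0 changed direction. Several settings could change only the p-value and not the direction. Each enzyme had 1 probe set, so the probe-set settings left its log2 change as it was. So did the fit of genes above the median level, the 2-group fits, the trended robust variance, the replicate block and leaving out an array of the group not compared. A further 11 values without a call passed in at least 1 setting, 2 at 8 h, 3 at 20 h and 6 between 20 h and 8 h. By comparison, 2 of 15 calls were lost at 8 h, 9 of 26 at 20 h and 7 of 17 between 20 h and 8 h. The number lower at 8 h was 2 with 8 h replicates 1 and 2 counted as 1, and 2 to 4 over the fits that leave out 1 array, with 2 without control replicate 2, 8 h replicate 1 or 8 h replicate 2. The number lower at 20 h against 8 h was 5 after repeated quantile normalization and 5 to 12 when 1 array was left out, with 5 without 8 h replicate 3 or 20 h replicate 2. The causes were not tested. The labels do not say whether the triplicate numbers pair the arrays. Same-number correlations of deviations ran from -0.318 to 0.111, and 2 of 9 arrays correlated best with their own number. Control replicate 3 stood apart from its group, so these correlations cannot decide whether a pairing existed. With a replicate block, 11 were higher and 3 lower at 8 h, 13 and 10 at 20 h, and 8 and 7 between 20 h and 8 h; it ended the calls of KDM3B at 8 h, of KDM4B, KMT5B and SIRT5 at 20 h, and of KMT2C and HDAC2 between 20 h and 8 h. Of 760 counts of partner genes under the alternatives, 691 were within 1.5 times the reported count. With 3 arrays a group, changes near 0.5 on the log2 scale were often missed in simulated data. Those data had 200 changed genes, fewer than were called here, so the share missed in these data is not known.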

Other observations

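HDAC10 shares its probe set with MAPK12, so it entered no test. The log2 level of that probe set was 4.23 ± 0.18 (SD, n = 3) in controls, 4.04 ± 0.08 at 8 h and 4.20 ± 0.08 at 20 h.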
